A study of Mus musculus with 12 samples.

Results

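The genes described are 10 members of the Notch pathway: the receptors Notch1, Notch2 and Notch3, the ligands Dll1, Dll3, Dll4 and Jag1, and the target genes Hes1, Hes5 and Hey1. They were taken by name from the 38720 genes of each deposited table, and all 10 were present and passed the filter on low values in both cell fractions. The libraries came from retinal ganglion cells (RGCs) and from the other cells of the same retinas (non-RGCs), taken from C57/BL6 mouse pups at postnatal day 0. The mKO pups carried a Cre knock-in driven by the promoter of Math5 (Atoh7), a factor that starts RGC development. They also carried floxed Ezh2 alleles that lose the exons of the SET domain when Cre acts. Ezh2 is the histone methyltransferase that places the repressive mark H3K27me3. The control pups are labelled wild type (WT), and the methods name floxed littermates without Cre as controls unless stated otherwise, so whether the sequenced WT pups carried floxed alleles is not given in the sources used here. Cre is active in only part of the RGCs of this line, so that each mKO RGC library mixes recombined and unrecombined cells. According to the paper, few of the other retinal cells come from progenitors that express Math5. Most cells in the mKO non-RGC libraries would thus be unrecombined, and recombination was not measured in any library. RGCs were pulled from dissociated retinas with magnetic beads against Thy-1 (CD90), and the cells left behind made up the non-RGCs. Each of the 4 groups (mKO RGC, WT RGC, mKO non-RGC, WT non-RGC) has 3 libraries from independent RNA extractions.

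Notch signalling passes between touching cells. A ligand on one cell binds a receptor on its neighbour, the receptor is cut, and its intracellular part enters the nucleus, where it joins the DNA-binding protein RBPJ and switches on genes of the Hes and Hey families. These repressors keep retinal progenitors dividing and hold back the proneural factors that drive neurogenesis, while cells that begin to differentiate make Delta-like ligands and so signal back to the progenitors around them. In the retina, high Notch activity is known to keep progenitors and Müller glia, and low activity to allow the birth of neurons, RGCs and photoreceptors among them.

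The target sites of this pathway can be shown in the upstream sequence of its own genes. RefSeq promoters on GRCm38.p6 were matched for 8 of the 10 genes, with 9 promoters because Dll1 has a pair of starts. Hes1 and Hey1 had no entry. The 250 bases before each start were searched on both strands for the RBPJ core TGGGAA, its longer form GTGGGAA (which contains the core), the N box CACNAG that Hes proteins bind, and the E box CAGCTG that proneural factors bind. Of the 9 promoters, only that of Hes5 held the RBPJ core, and it held 2 copies, both in the longer form and on opposite strands. Among all 32851 promoters 21.6% held the core, 5.42% held the longer form and 0.161% held the longer form at least 2 times. The Hes5 stretch is printed because it carries the element through which the pathway acts, with the core in capitals, on the plus strand of chr4:154960673-154960922, directly before the start of the gene.
Hes5 upstream: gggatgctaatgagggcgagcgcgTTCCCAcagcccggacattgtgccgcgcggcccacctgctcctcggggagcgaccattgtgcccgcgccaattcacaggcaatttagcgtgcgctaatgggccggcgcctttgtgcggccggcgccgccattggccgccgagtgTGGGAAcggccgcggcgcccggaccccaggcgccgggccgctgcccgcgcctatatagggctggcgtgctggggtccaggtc

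The copy on the plus strand lies 77 to 82 bases before the start and the copy on the minus strand, read as TTCCCA, 221 to 226 bases before it. The E box was found in 3 of the 9 promoters, those of Dll1, Dll3 and Jag1, against 13.0% of all promoters. Their windows are shown with the E box in capitals, to show the letters that proneural factors bind.
Dll1 E box, 127 to 132 bases before the start: ttaccataCAGCTGagcgcaca
Dll3 E box, 2 to 7 bases before the start: gcatccagCAGCTGc
Jag1 E box, 77 to 82 bases before the start: gtttcatgCAGCTGatctgaaa
The N box was found in 4 of the 9 promoters, those of Notch1, Notch2, Notch3 and Dll4, against 36.7% of all promoters. These matches are letters in a window, and no binding was measured.

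Depth was alike across most libraries, with 10288195 to 13014004 reads on genes in 11 of them and 7139633 in the shallowest, a mKO non-RGC library. Within a group, libraries are called A, B and C in falling order of depth, because the deposited values do not say which library is which numbered sample. Normalized reads are the reads of a library divided by the size factor of the authors, and the 2 tables were scaled separately. Reads of Ezh2 were 1354, 1476 and 1443 in mKO RGCs against 1190, 1206 and 1678 in WT RGCs (log2 fold change 0.09, adjusted p = 0.637 in limma). In non-RGCs they were 1889, 2107 and 2509 against 2115, 2149 and 1683 (log2 fold change 0.13, adjusted p = 0.584 in limma). The count runs over the whole gene, the undeleted exons included, so this level does not check the deletion. Markers of RGCs summed to 31309 to 33628 normalized reads in WT RGCs and 5629 to 5967 in WT non-RGCs, and markers of progenitors to 15802 to 26290 and 28927 to 36904, so that progenitor RNA was present in the RGC fraction as well. None of the markers in any list was at 0 in every library.

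Among these 10 genes, Hes1 and Notch1 had the highest mean levels per length in both wild type fractions and Jag1 the lowest, although the ranges of the leading genes overlapped. Levels between genes are compared in RPKM, the reads per kilobase of exon and per 1000000 reads on genes. Exon length joins all annotated transcripts of a gene, so the order between genes depends on that choice. In WT RGCs Hes1 stood at 33.2 ± 4.44 (SD, n = 3), Notch1 at 32.2 ± 6.57, Hes5 at 30.1 ± 7.13, Dll3 at 25.1 ± 10.6 and Dll1 at 22.1 ± 7.98 RPKM, and neighbours in this order overlapped in their ranges over libraries. Below them lay Hey1 at 14.9 ± 0.601, Dll4 at 12.5 ± 6.35, Notch3 at 5.82 ± 1.28, Notch2 at 5.20 ± 1.23 and Jag1 at 2.17 ± 0.560 RPKM, where the ranges of Hey1 and Dll4 and those of Notch3 and Notch2 overlapped. The wide spread of the 3 Delta-like ligands came from WT RGC library C, which was the highest of its group in each of them.

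In WT non-RGCs the order of RPKM levels was nearly the same, with Hes1 at 64.7 ± 8.22 (SD, n = 3), Notch1 at 55.3 ± 2.74, Dll3 at 52.4 ± 9.44, Hes5 at 48.2 ± 12.1, Dll1 at 42.5 ± 3.46, Dll4 at 27.2 ± 2.3, Hey1 at 25.4 ± 5.92, Notch2 at 12.2 ± 1.90, Notch3 at 8.64 ± 0.780 and Jag1 at 4.49 ± 1.08. Neighbours in this order overlapped from Hes1 down to Dll1 and between Dll4 and Hey1, and were apart elsewhere. As shares of the reads of a library, 9 of the 10 genes were lower in every WT RGC library than in every WT non-RGC library, and Hes5 overlapped. How many of all genes lay apart in this way was not computed, so nothing is read from this count. The ratio of the WT RGC to the WT non-RGC level ran from 0.425 for Notch2 to 0.674 for Notch3. No test was made between the fractions because their tables were normalized separately. In mKO non-RGCs Notch1 had moved from the second to the sixth place, at 28.6 ± 4.74 RPKM, below Hes1, Hes5, Dll3, Hey1 and Dll1, with a range that overlapped that of Dll1.

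**Figure D1:**
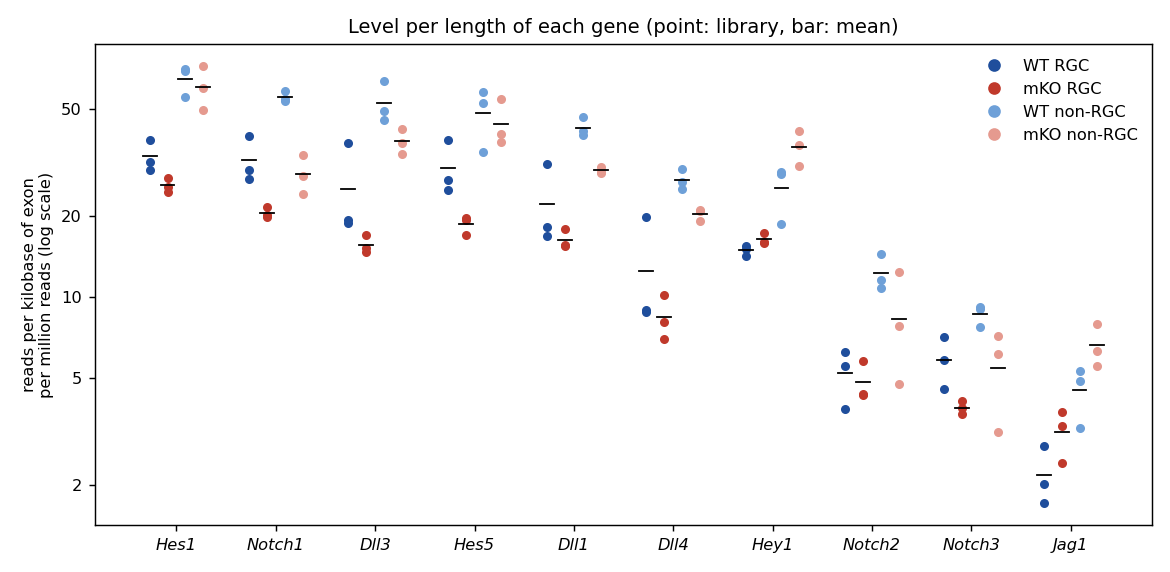
Level of each gene per length, in RPKM on a log axis, in each library of the 4 groups, with bars at the group means and genes ordered by the WT non-RGC mean. Hes1 and Notch1 lead both WT groups and Jag1 is last, and WT RGC library C is the point far above its group for Dll1, Dll3 and Dll4.

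In RGCs, 4 of the 10 genes were lower in mKO than in WT and none was higher. The receptors Notch1 and Notch3 and the targets Hes1 and Hes5 fell to between 0.577 and 0.720 of the WT level, whereas no ligand passed the test. Of all 16085 genes tested in RGCs, 21.2% were called lower and 16.3% higher at an adjusted p under 0.05 in limma, so calls were common in this comparison. Among well-expressed genes with a GC content like that of a member, described below, the share called lower ran from 16.8% (Jag1) to 76.0% (Hes5). It was 47.5% for Notch1, 66.3% for Notch3 and 32.9% for Hes1, so nothing is read from the count of called members. No member was higher at an unadjusted p under 0.05 either, and limma-voom called the same 4 genes, while among the ligands Dll3 alone was below an unadjusted 0.05 in both. In 6 of the 10 genes all mKO libraries lay below all WT libraries, against 28.2% of all genes, and the median log2 fold change was -0.56 over the 10 genes and -0.00 over all genes tested. In bulk RNA, fewer cells of a type and less RNA per cell cannot be told apart.

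Notch1 (chr2:26457903-26516663, minus strand), the main Notch receptor of retinal progenitors, stood at 3474, 3236 and 3353 normalized reads in mKO RGC libraries A, B and C and at 4883, 5322 and 6995 in WT. The groups did not overlap, and WT library C was the highest. The log2 fold change was -0.76 (SE 0.13, 95% interval -1.06 to -0.46, adjusted p = 0.0043 in limma). Notch3 (chr17:32120820-32166852, minus strand), a receptor known best from the mural cells of vessels, stood at 354, 379 and 346 against 458, 726 and 584 normalized reads. These groups also lay apart, with WT library B the highest, and the log2 fold change was -0.69 (SE 0.16, adjusted p = 0.015 in limma). Pericyte markers summed to 1156, 290 and 426 normalized reads in mKO RGC libraries A, B and C and to 775, 1850 and 483 in WT. WT library B was the highest in both Notch3 and this sum, while the order of the other libraries differed. Rgs5 alone gave 850 of the 1850. Of 7 markers tested, 1 was called lower (Pdgfrb), against 21.2% of all genes. The part of pericytes in the Notch3 result was not tested. Notch2 (chr3:98013527-98150361, plus strand), a receptor of glia and progenitors, gave 706, 532 and 547 against 517, 758 and 829 normalized reads. The groups overlapped, and its log2 fold change of -0.22 (SE 0.19, adjusted p = 0.403 in limma) did not pass the test.

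The ligands did not pass the test in RGCs, although 2 of them lay apart between genotypes. Dll1 (chr17:15367354-15376872, minus strand), a ligand of cells that start to differentiate, stood at 746, 860 and 758 normalized reads in mKO and at 960, 896 and 1632 in WT (log2 fold change -0.51, SE 0.22, adjusted p = 0.106 in limma). Dll3 (chr7:28293553-28302238, minus strand), a ligand that acts inside the cell and dampens signalling, gave 490, 556 and 489 against 672, 694 and 1316 normalized reads (log2 fold change -0.73, SE 0.25, adjusted p = 0.054 in limma). In both genes all mKO libraries were below all WT libraries. Dll4 (chr2:119325784-119335962, plus strand), made by newborn retinal neurons and vessel sprouts, gave 353, 448 and 313 against 429, 428 and 945 normalized reads with overlapping groups (log2 fold change -0.60, SE 0.31, adjusted p = 0.173 in limma). Jag1 (chr2:137081456-137116644, minus strand), a ligand of the Jagged family, had the opposite sign, with 248, 161 and 225 against 125, 206 and 145 normalized reads, overlapping groups and a log2 fold change of 0.42 (SE 0.24, adjusted p = 0.199 in limma).

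The values of Dll1, Dll3 and Dll4 in WT RGCs turned on library C, unlike those of Jag1, where library B was the highest. That library summed to 15527 normalized reads over the neurogenic precursor markers and 26290 over the progenitor markers, against at most 10222 and 16793 in the other 5 RGC libraries, and the part of these cells in the ligand levels was not tested. Of these lists, 3 of 10 neurogenic markers (Neurod1 and Insm1 among them) were called lower and 1 (Onecut2) higher in mKO RGCs, and 3 of 10 progenitor markers (Lhx2, Rax and Ccnd1) were called lower, against 21.2% lower and 16.3% higher of all genes, and nothing is read from counts this small. Without library C the log2 fold changes shrank to -0.24 for Dll1, -0.42 for Dll3 and -0.22 for Dll4, but the spread shrank more, so that Dll1 and Dll3 now passed (adjusted p = 0.027 and 0.0021 in limma) and Dll4 did not (adjusted p = 0.217). Notch1 (-0.60), Notch3 (-0.68), Hes1 (-0.38) and Hes5 (-0.62) were still called without it, which made 6 of 10 genes lower. Calls also rose over all genes, with 4453 of 16125 lower without library C against 3405 of 16085 with it.

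Of the targets, Hes1 (chr16:30064384-30067796, plus strand), the repressor that maintains progenitors, stood at 641, 570 and 609 normalized reads in mKO and 810, 765 and 963 in WT RGCs. Its groups lay apart with a log2 fold change of -0.47 (SE 0.10, adjusted p = 0.0098 in limma). Hes5 (chr4:154960923-154962371, plus strand), a second repressor that follows Notch activity closely and whose promoter is printed above, gave 303, 301 and 269 against 463, 429 and 644 normalized reads. It showed the widest gap of the RGC comparison among the 10 genes, with a log2 fold change of -0.79 (SE 0.16, adjusted p = 0.0079 in limma). Hey1 (chr3:8663359-8667256, minus strand), a target linked to vessels and glia, was almost level at 638, 595 and 607 against 627, 588 and 610 normalized reads. Its log2 fold change was 0.01 with a 95% interval of -0.14 to 0.16 (adjusted p = 0.912 in limma).

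**Figure D2:**
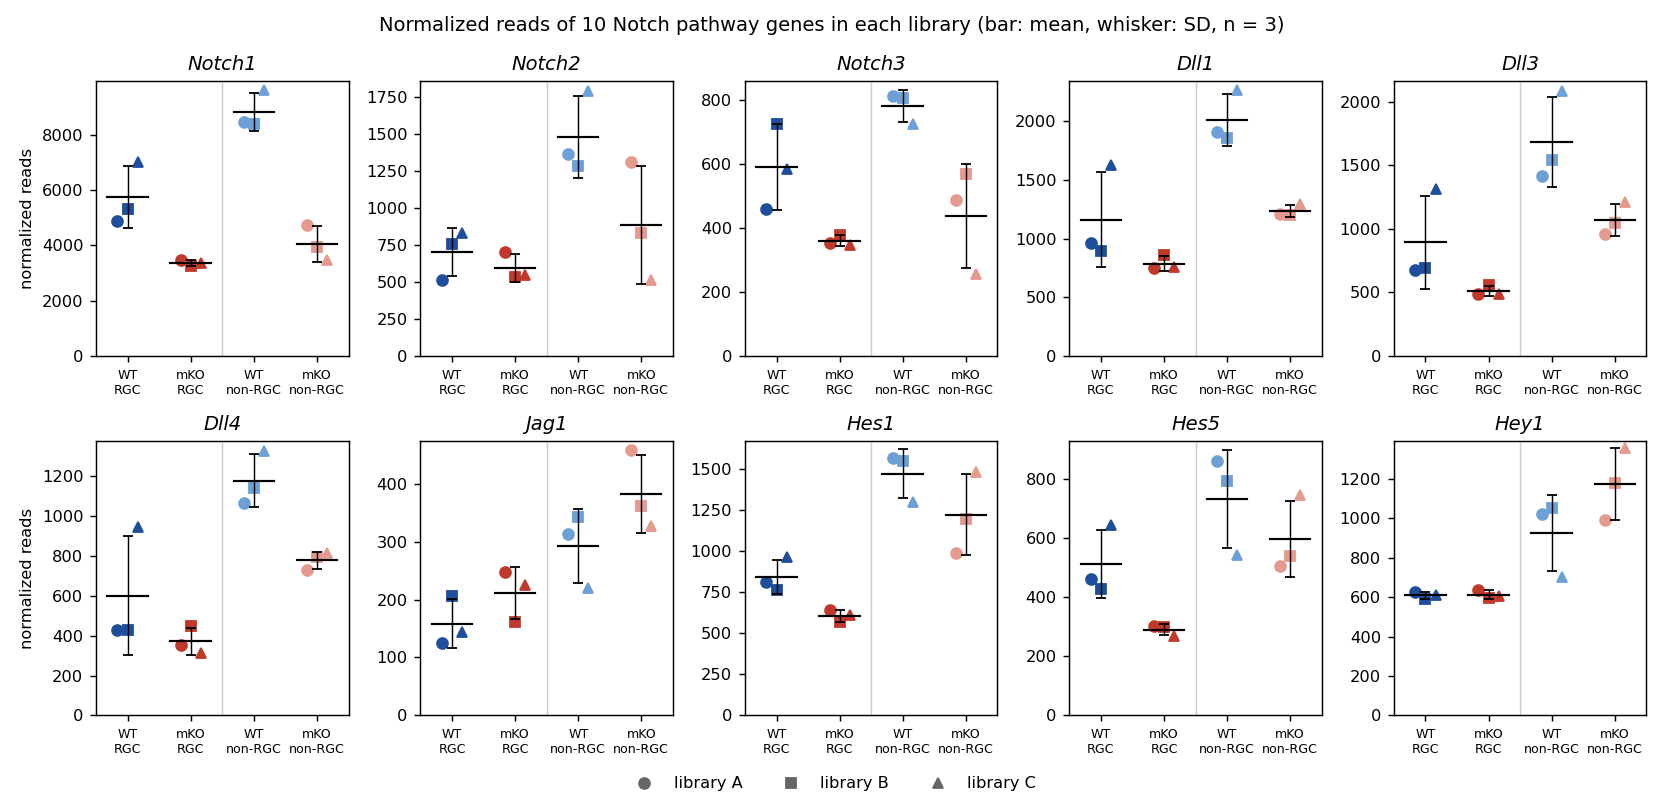
Normalized reads (vertical axis, from 0) of each gene in every library of the 4 groups, with bars at the mean and whiskers of 1 SD (n = 3). In RGCs the mKO libraries of Notch1, Notch3, Dll1, Dll3, Hes1 and Hes5 lie below the WT ones, and in non-RGCs those of Notch1, Notch3 and the 3 Delta-like ligands do. The RGC and non-RGC values come from tables scaled separately.

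In non-RGCs, again 4 of the 10 genes were lower in mKO and none was higher, but apart from Notch1 they were the ligands Dll1, Dll3 and Dll4 instead of the targets. Of the 15326 genes tested there, 6.43% were called lower and 4.18% higher in limma. No member was higher at an unadjusted p under 0.05, and limma-voom called 5 lower, with Notch3 added, and none higher. All mKO libraries lay below all WT libraries in 5 of the 10 genes, against 19.2% of all genes. The median log2 fold change was -0.61 over the 10 genes and -0.03 over all genes. The count depended on single libraries: without mKO library B only Notch1 passed, without WT library B Notch1 and Dll1 passed, and the calls were 3 to 5 without any of the others. Calls fell over all genes too, from 985 lower of 15326 to 93 of 15318 without mKO library B and 221 of 15305 without WT library B. The log2 fold change of Dll1 stayed between -0.75 and -0.61 over the left-out libraries.

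Notch1 showed the widest gap of all, at 4727, 3950 and 3467 normalized reads in mKO non-RGC libraries A, B and C against 8469, 8376 and 9618 in WT. The lowest WT library was far above the highest mKO library, and the level in mKO was 0.456 of that in WT, with a log2 fold change of -1.13 (SE 0.13, 95% interval -1.42 to -0.85, adjusted p = 0.0048 in limma). It was called without any single library, at -1.25 to -1.03. Notch3 gave 489, 569 and 256 against 813, 806 and 725 normalized reads. Its groups lay apart and its log2 fold change was -0.91 (SE 0.26), but the adjusted p was 0.054 in limma. Notch2 gave 1312, 830 and 517 against 1364, 1284 and 1794 normalized reads, overlapped through mKO library A, and had a log2 fold change of -0.83 (SE 0.29, adjusted p = 0.092 in limma).

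All 3 receptors were lowest in mKO non-RGC library C, and that library stood apart in another way. Its long genes were lower against its short genes, by 0.52 on the log2 scale from the mean of the non-RGC libraries, whereas the other 5 non-RGC libraries lay between -0.03 and 0.31. The receptor genes have the most exon bases among the 10 genes, at 14232, 10782 and 8089 against 1363 to 5827 for the rest. These lengths join the exons of all annotated transcripts of a gene and can exceed any single transcript. Whether exon length played a part in their levels was not tested. Without this library the log2 fold changes were -1.03 for Notch1 (adjusted p = 0.017 in limma), -0.49 for Notch2 (adjusted p = 0.171) and -0.56 for Notch3, which then passed (adjusted p = 0.038). Without mKO library A instead, Notch2 passed at -1.16 (adjusted p = 0.019 in limma) while Dll3 and Dll4 did not pass.

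The Delta-like ligands moved alike in non-RGCs, with every mKO library below every WT library. Dll1 stood at 1208, 1205 and 1296 normalized reads in mKO and 1906, 1862 and 2267 in WT (log2 fold change -0.70, SE 0.12, adjusted p = 0.012 in limma). Dll3 gave 958, 1047 and 1209 against 1414, 1542 and 2081 normalized reads (log2 fold change -0.63, SE 0.17, adjusted p = 0.040 in limma). Dll4 gave 731, 792 and 813 against 1066, 1141 and 1326 normalized reads (log2 fold change -0.59, SE 0.13, adjusted p = 0.025 in limma). In each genotype library C was the highest of all 3 ligands, and library C was also the highest in summed neurogenic markers, which ran from 12052 to 14397 in mKO and from 16590 to 19555 in WT. Of those markers 4 of 10 (Atoh7, Neurog2 and Insm1 among them) were called lower and none higher, and of the progenitor markers 1 of 10 (Lhx2) was called lower, against 6.43% lower and 4.18% higher of all genes. Atoh7 is also the gene whose promoter drives Cre in the mKO pups, so its level and the Cre allele cannot be told apart. The part of these markers in the ligand result was not tested.

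Jag1 and the targets showed no call in non-RGCs. Jag1 gave 457, 362 and 326 against 312, 343 and 220 normalized reads, with overlapping groups and a log2 fold change of 0.40 (SE 0.21, adjusted p = 0.237 in limma), close to its value in RGCs. Hes1 gave 992, 1196 and 1481 against 1565, 1551 and 1302 normalized reads (log2 fold change -0.28, 95% interval -0.64 to 0.08, adjusted p = 0.269 in limma). Hes5 gave 505, 542 and 746 against 861, 793 and 544 normalized reads (log2 fold change -0.29, 95% interval -0.76 to 0.18, adjusted p = 0.384 in limma). Hey1 gave 992, 1178 and 1354 against 1022, 1051 and 702 normalized reads (log2 fold change 0.36, 95% interval -0.06 to 0.77, adjusted p = 0.225 in limma). In all 3 targets mKO library C was the highest and WT library C the lowest of its group, the reverse of the order by genotype means in Hes1 and Hes5.

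The non-RGC libraries of the 2 genotypes also differed in RGC transcripts. Thy1, the antigen of the beads, stood at 67.04, 79.6 and 93.2 normalized reads in mKO against 4.51, 1.94 and 9.38 in WT non-RGCs, and 7 of 11 RGC markers were called higher in mKO and none lower. Summed RGC markers ran from 5952 to 8164 in mKO and from 5629 to 5967 in WT non-RGCs. In the RGC fraction, 10 of 11 RGC markers were called lower in mKO, with sums of 22298 to 23416 against 31309 to 33628. Of all genes tested, 21.2% were called lower in RGCs and 4.18% higher in non-RGCs. With the GC trend removed, 8 RGC markers were called lower in RGCs, against 8.91% of all genes. With the reads per base trend removed as well, 2 were, against 3.59%. In non-RGCs 5 were called higher under each removal, against 126 and 128 of all 14473 genes. The part of RGC carry-over in the values of the 10 genes was not tested. Endothelial markers, of cells that use Notch1, Dll4 and Hey1, summed to 3430 to 3929 in mKO and 3735 to 5368 in WT RGCs. In non-RGCs they summed to 5116 to 5993 and 6683 to 7045. Kdr made up most of each sum (means of 3151 and 3755 in RGCs, 4781 and 6055 in non-RGCs). In WT RGCs Kdr, Cldn5 and Egfl7 were highest in library C, whereas the other markers of this list were highest in library B. The sums thus mainly follow Kdr and do not give a level of endothelial cells. By marker, the mKO level ran from 0.356 (Tie1) to 1.02 (Esam) of WT in RGCs and from 0.0947 to 1.48 in non-RGCs. In RGCs 1 of 10 (Egfl7) was called lower and in non-RGCs 1 of 9 (Tie1), against 21.2% and 6.43% of all genes. Their part was not tested either.

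**Figure D3:**
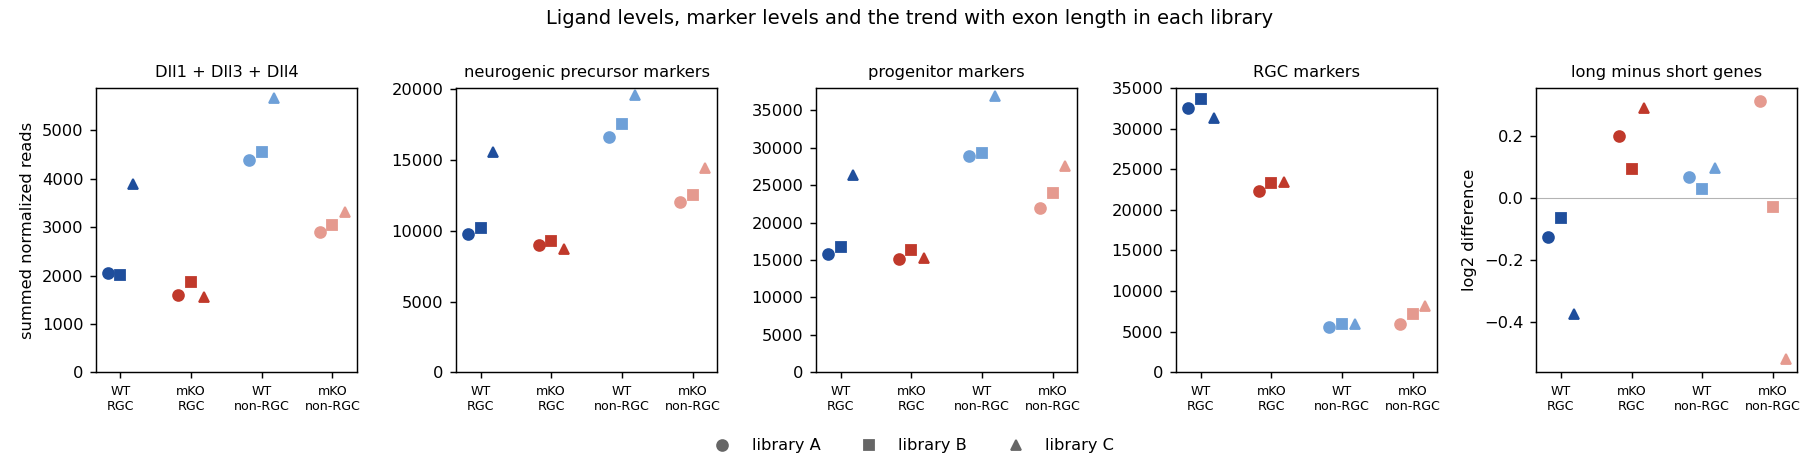
Summed normalized reads of Dll1, Dll3 and Dll4, of the neurogenic precursor, progenitor and RGC markers, and the log2 difference of long and short genes from the mean of the fraction, in each library of the 4 groups. WT RGC library C is the highest RGC library for ligands, neurogenic and progenitor markers, and mKO non-RGC library C is the lowest of the non-RGC libraries for long against short genes (-0.52).

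The 10 genes are mostly rich in GC, and the libraries of the 2 genotypes differed along GC content. Over well-expressed genes, those in the top of 5 equal groups by exon GC content (above 55.3%) deviated from those in the bottom group (below 43.8%) by -0.44 to -0.37 on the log2 scale in mKO RGC libraries and by 0.34 to 0.42 in WT RGC libraries. In non-RGCs the deviations were -0.46 to -0.11 in mKO and 0.22 to 0.28 in WT. The median log2 fold change in RGCs accordingly ran from 0.35 in the bottom to -0.45 in the top GC group, and in non-RGCs from 0.17 to -0.35. Exon GC content was 63.1% in Hes5, 60.3% in Dll3, 59.6% in Notch3, 56.1% in Dll1, 55.9% in Dll4, 55.4% in Notch1, 53.8% in Notch2, 52.4% in Hes1, 50.4% in Hey1 and 48.5% in Jag1. Jag1 and Hey1, the members with the lowest GC content, were the only ones with a log2 fold change above 0 in either fraction. This split and the genotype cannot be told apart by design, since each library has 1 genotype.

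**Figure D4:**
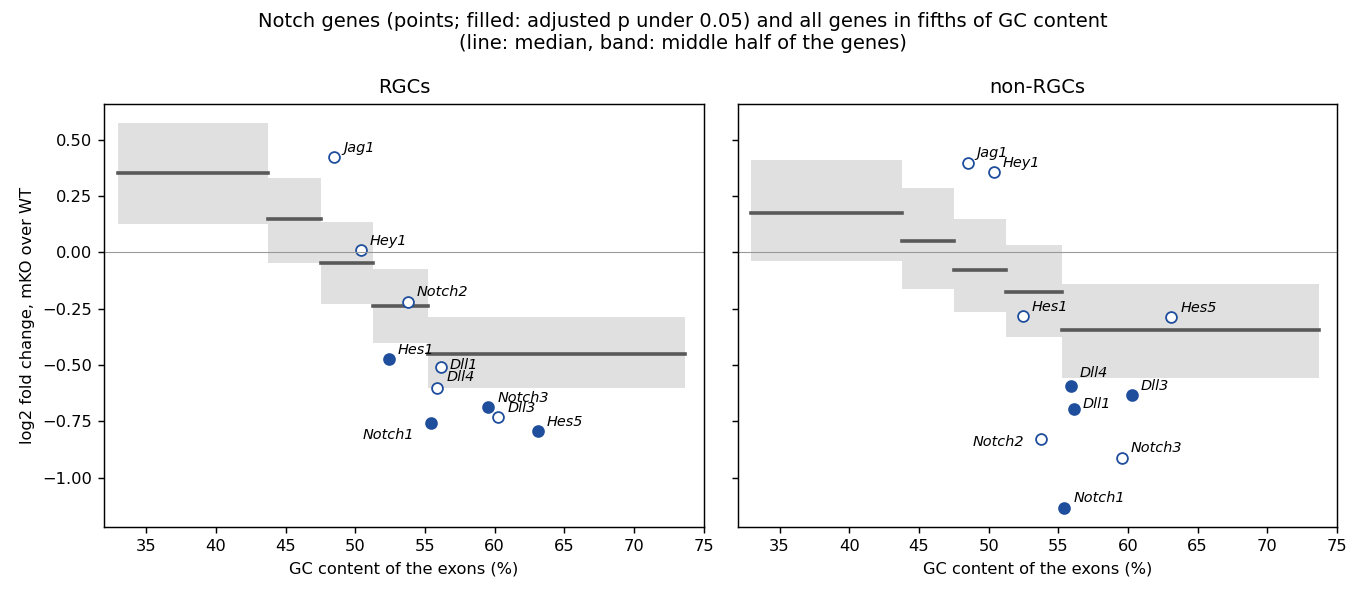
Log2 fold change of mKO over WT (vertical axis) against exon GC content in percent (horizontal axis) for the 10 genes, with filled points at an adjusted p under 0.05 in limma. Grey lines and bands give the median and the lower to upper quartile of all well-expressed genes in 5 equal groups of GC content, whose medians fall from 0.35 to -0.45 in RGCs and from 0.17 to -0.35 in non-RGCs, and Notch1, Notch3 and Dll3 lie below the bands in both.

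Set against genes of like GC content, the members differed in how far they stood out. Among the 233 RGC genes within 2 percentage points of the GC content of Hes5, the median log2 fold change was -0.66 and 76.0% were called lower, and Hes5 at -0.793 lay just past their lower quartile of -0.788. Dll1 in RGCs was as close to the lower quartile of its neighbours (-0.509 against -0.506). Notch3 (-0.69 against -0.62), Dll3 (-0.73 against -0.65), Dll4 (-0.60 against -0.49) and Hes1 (-0.47 against -0.37) lay further below theirs, and Notch1 the furthest (-0.76 against -0.48). Notch2 and Hey1 lay within the quartiles, and Jag1 at 0.42 above the upper one (0.19). The share of such RGC neighbours called lower was 68.5% for Dll3, 51.0% for Dll1, 49.7% for Dll4, 39.1% for Notch2, 24.2% for Hey1 and 16.8% for Jag1. Among non-RGC neighbours it was 13.5% for Notch1, 15.6% for Dll1, 30.5% for Dll3 and 14.6% for Dll4. In non-RGCs the genes below the lower quartile of their neighbours were Notch1 (-1.13 against -0.43), Notch2 (-0.83 against -0.38), Notch3 (-0.91 against -0.60), Dll1 (-0.70 against -0.45) and Dll4 (-0.59 against -0.45), those above the upper quartile Jag1 (0.40 against 0.17), Hey1 (0.36 against 0.13) and Hes5 (-0.29 against -0.34), and Dll3 and Hes1 lay within.

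When the GC trend of each library was removed before limma, no member passed in RGCs, where 8.91% of 15159 genes were still called lower and 2 members, Notch1 and Hes1, had an unadjusted p under 0.05. Notch1 then had a log2 fold change of -0.42 (adjusted p = 0.065), Hes1 of -0.27 (adjusted p = 0.096), Notch3 of -0.18 (adjusted p = 0.519) and Hes5 of -0.12 (adjusted p = 0.618). In non-RGCs only Notch1 passed, at -0.88 (SE 0.15, adjusted p = 0.034 in limma), against 0.587% of 14473 genes called lower. The ligands there kept their sign at -0.42 for Dll1 (adjusted p = 0.086), -0.32 for Dll4 (adjusted p = 0.164) and -0.18 for Dll3 (adjusted p = 0.50). With the trend along reads per base of exon removed as well, no member passed in limma in either fraction, with 3.59% of RGC genes still called lower. At an unadjusted p under 0.05 were 1 member in RGCs, lower, and 5 in non-RGCs, 4 lower and 1 (Hey1) higher, and Notch1 was at -0.37 in RGCs (adjusted p = 0.132) and -0.80 in non-RGCs (adjusted p = 0.061). Hes5 in non-RGCs changed sign to 0.28 and 0.32 under these removals.

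**Figure D5:**
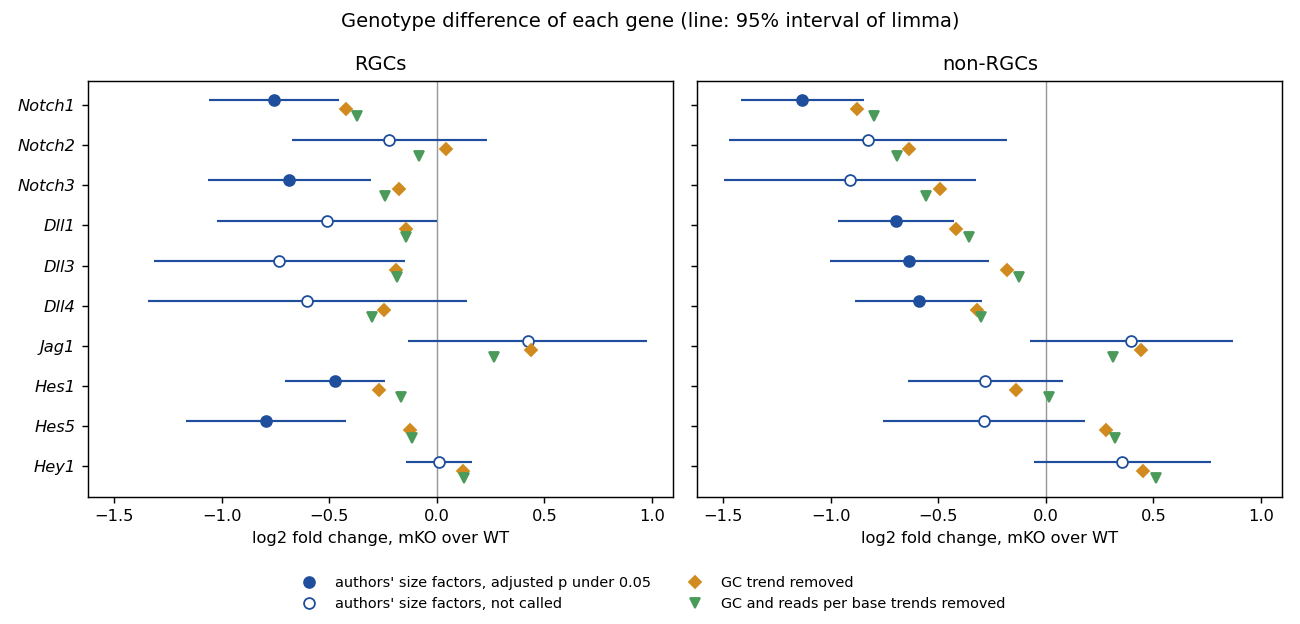
Log2 fold change of mKO over WT (horizontal axis) of each gene in RGCs and non-RGCs, with circles for limma on the normalized reads, filled where the adjusted p was under 0.05, and lines for the 95% interval. Diamonds give the value with the GC trend of each library removed and triangles that with the GC and reads per base trends removed, which move Hes5 in RGCs from -0.79 to -0.12 and leave Notch1 in non-RGCs at -0.88 and -0.80.

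The calls named different genes in the RGC and non-RGC fractions, so the difference of the genotype effects was tested over all 12 libraries. No member passed, and none had an unadjusted p under 0.05 (the lowest was 0.069, for Notch1), with limma-voom also calling none. Across all 14894 genes in this test, 0.107% were called. The RGC effect minus the non-RGC effect was 0.38 for Notch1 (95% interval -0.03 to 0.79, adjusted p = 0.524 in limma), the weaker fall being in RGCs, and 0.61 for Notch2 (-0.25 to 1.46). It was -0.51 for Hes5 (-1.12 to 0.11), -0.35 for Hey1 (-0.81 to 0.11) and -0.19 for Hes1 (-0.63 to 0.24). For the ligands it was 0.19 for Dll1 (-0.36 to 0.74), -0.10 for Dll3 (-0.78 to 0.58), -0.01 for Dll4 (-0.77 to 0.75) and 0.02 for Jag1 (-0.70 to 0.75), and for Notch3 0.23 (-0.52 to 0.97). These intervals are wide beside the effects themselves, so effects alike in both fractions and effects that differ by 0.5 on the log2 scale or more are both within them for each member.

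Of 49 other genes of the pathway, 18 were called lower and 7 higher in RGCs, where 49 were tested, and 11 lower and 1 higher in non-RGCs, where 48 were tested. Over all genes tested, 21.2% were called lower and 16.3% higher in RGCs and 6.43% and 4.18% in non-RGCs. The median log2 fold change over the pathway genes was -0.24 in RGCs and -0.29 in non-RGCs, against -0.00 and -0.03 over all genes, and 28 genes were called in at least one fraction, of which 9 in both. Without WT RGC library C the RGC calls rose to 37, and without mKO or WT library B the non-RGC calls fell to 1 and 3. Over all genes, 4453 were called lower and 3730 higher of 16125 without WT RGC library C. Without mKO library B 93 were lower and 48 higher of 15318 in non-RGCs, and without WT library B 221 and 166 of 15305. With the GC trend removed, 4 were called lower and 4 higher in RGCs, and none lower and 1 higher in non-RGCs. Of all genes, 1350 were then called lower and 746 higher of 15159 in RGCs, and 85 and 126 of 14473 in non-RGCs. The genes named here are Rbpj and those drawn from the 12 called genes with the largest log2 fold change in either fraction.

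In the nucleus, Rbpj, the DNA-binding factor through which all receptors act, was higher in mKO RGCs (847, 798 and 796 against 653, 621 and 728 normalized reads, log2 fold change 0.29, SE 0.08, adjusted p = 0.024 in limma). In non-RGCs its log2 fold change was 0.03 (adjusted p = 0.893), and with the GC trend removed the RGC value was 0.09 (adjusted p = 0.454). Spen, a corepressor of RBPJ, and Crebbp, a histone acetyltransferase that serves as its coactivator, were lower in non-RGCs at -0.71 and -0.78 on the log2 scale and did not pass in RGCs (-0.30 in both).

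Among genes that process the receptors, Furin, the convertase that cuts them on their way to the surface, fell in both fractions, at -0.61 in RGCs and -0.89 in non-RGCs on the log2 scale (adjusted p = 0.00077 and 0.015 in limma). With the GC trend removed Furin was still called in RGCs (-0.27, adjusted p = 0.025 in limma) but not in non-RGCs (-0.63, adjusted p = 0.085). Aph1c, a gamma-secretase subunit, rose in both, from 43.6, 29.3 and 31.5 normalized reads in WT to 112, 126 and 110 in mKO RGCs (log2 fold change 1.73, SE 0.20, adjusted p = 0.0012 in limma) and by 1.49 in non-RGCs (adjusted p = 0.016 in limma). With the GC trend removed it was called at 1.54 and 1.40 (adjusted p = 0.0066 and 0.047 in limma). The call in non-RGCs was lost with the reads per base trend removed as well (1.35, adjusted p = 0.060) and without mKO or WT library B. Aph1c and Aph1b are near-identical copies, so that reads may have been split between them and the values of both are uncertain.

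Lfng, the Fringe enzyme that glycosylates receptors and shifts their choice of ligand, was lower in non-RGCs at 675, 718 and 631 against 1135, 1019 and 1533 normalized reads (log2 fold change -0.84, SE 0.17, adjusted p = 0.017 in limma). In RGCs it gave 286, 488 and 248 against 460, 453 and 1474 normalized reads and did not pass (log2 fold change -1.05, adjusted p = 0.129), with WT library C again far above the rest, as in the Delta-like ligands. Of the other ligands, Jag2 fell by 0.45 in RGCs (adjusted p = 0.043 in limma) and by 0.86 in non-RGCs (adjusted p = 0.040 in limma) on the log2 scale, but with the GC trend removed neither passed and the RGC value turned to 0.13 (-0.37 in non-RGCs). Dlk2, a noncanonical ligand, fell by 0.74 in RGCs (adjusted p = 0.0029 in limma) and Hes6, a Hes family member that promotes neurogenesis, by 0.74 (adjusted p = 0.0061 in limma). With the GC trend removed both were at -0.11 in RGCs and did not pass, and neither passed in non-RGCs.

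Of 12 genes for ubiquitination and endocytosis of receptors and ligands, 7 were called lower and 1 higher in RGCs (Itch, a ubiquitin ligase, named after its value was seen), and 4 lower and none higher in non-RGCs, where 1 of the 48 other pathway genes was higher at an unadjusted p under 0.05 in limma or limma-voom. Over all genes tested, 21.2% were called lower and 16.3% higher in RGCs, and 6.43% and 4.18% in non-RGCs. With the GC trend removed, limma called 0 of the 12 in either fraction. Of all genes, 8.91% were then called lower in RGCs and 0.587% in non-RGCs. Neurl1a, a ubiquitin ligase of ligands, had log2 fold changes of -0.67 in RGCs and -0.85 in non-RGCs, Dtx1, a Deltex ligase, of -0.72 and -0.68, and Numbl, a Numb-like inhibitor of Notch, of -0.59 and -0.65, all called in limma. None of these values passed with the GC trend removed, where they ran from -0.46 to -0.19. The called genes thus included activators and inhibitors of the pathway.

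Across the 12 libraries, the genes whose share of reads followed the members most closely were chosen from 12005 genes by Pearson's r of log2 values. These values describe libraries that share fraction, genotype and the GC trend, and carry no test. Dll1 was closest to Zic2 (r = 0.989), the proneural factor Neurog2 (r = 0.988) and Fzd5 (r = 0.988), Dll3 to Ctdsp2 (r = 0.997), Mbtps1 (r = 0.993) and the progenitor factor Lhx2 (r = 0.992), and Dll4 to Rgs16 (r = 0.992), Sox8 (r = 0.991) and Nuak2 (r = 0.9902). Among themselves the 3 Delta-like ligands had r of 0.986, and Hes1 and Hes5 had 0.953. Notch1 was closest to the plexins Plxnd1 (r = 0.980) and Plxnb2 (r = 0.979) and to Samd4b (r = 0.974), Notch2 to Map3k4, Gpr146 and Sntb1 (r of 0.965 to 0.967), and Notch3 to Epas1 (r = 0.958), Fn1 and Gpr124 (r of 0.911 to 0.912), of which Epas1 and Gpr124 are known from vessels. Hes1 was closest to Nfyc (r = 0.9901), 0610031J06Rik (r = 0.988) and Trp53i13 (r = 0.987), Hes5 to Sphk2, Ncoa5 and Fam132a (r of 0.982 to 0.987), Hey1 to Zkscan14, Rab13 and Zfp410 (r of 0.983 to 0.991), and Jag1 to Slc15a2, Angpt1 and Prtg (r of 0.969 to 0.977).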

How the data were processed

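RNA-seq was made from 12 libraries in 4 groups, assigned from their labels. The authors selected poly-A RNA, used STAR (version 2.3.1z4 in the submitters' processing notes) to place single-end reads on mm10, featureCounts for the count of each gene and DESeq for normalization. The deposited signal is the mean of the size-factor-scaled counts over the libraries of a group. Deposited fold changes and p-values were not used. The reads of each library were recovered from the 15 digits of these means as the whole numbers that give them, uniquely for 100.0% of genes with reads, and carry no replicate number. Columns of per-sample values not used numbered 0.

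Reads divided by the size factors were analysed as log2(value + 1) with limma 3.58.1 in R 4.3.3, with a mean-variance trend, on genes whose mean reached 10 in either genotype, two-sided, with Benjamini-Hochberg adjustment over all genes and calls under 0.05. Fold changes on this scale are understated for low genes. P-values measure the spread between these libraries only. The smallest exact permutation p of 3 against 3 is 0.1, so none was run. Positions, exon lengths and GC content (known for 94.9% of genes tested) are from GENCODE M21 on GRCm38, trends were removed per library (lowess, span 0.3), and promoters are from RefSeq. On simulated RGC libraries limma recovered 199 of 200 changed genes with 16 false calls among 15864 genes. With an added GC trend it made 1267 false calls among 15887 genes, against 11 after its removal among 14980. The simulation gave all genes the same dispersion and all mKO libraries the same straight trend, unlike the real libraries. Its changed genes were drawn without regard to GC content, so it cannot show what the removal does to a change tied to GC content.

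The members and lists were chosen with earlier results of these data known. Named are all members, Ezh2, Rbpj, the 12 called pathway genes with the largest change, called markers, and the 3 genes most like each member (mean of at least 50 in both tables). Some genes that this rule takes in are not reported here. Alternatives were a pseudocount of 0.5, no filter or a mean of at least 50, total reads, the upper quartile, voom, trend removal, the thresholds of the study (p under 0.05 and a fold of at least 1.5), and each library left out.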

Additional observations from a re-analysis of the deposited data

How the results depend on the processing

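The counts of called members (4 in RGCs, 4 in non-RGCs, 0 for the difference between fractions) stayed within 1.5 times under a pseudocount of 0.5, no filter, a mean of at least 50, the upper quartile, voom and the study's thresholds. With the GC trend removed they were 0 in RGCs and 1 in non-RGCs, and with the GC and reads per base trends removed 0 and 0. The other pathway genes called fell from 25 to 8 and 5 in RGCs and from 12 to 1 and 0 in non-RGCs under these 2 removals, and to 11 in RGCs with the study's thresholds. Over all genes, lower calls fell under the removals from 3405 to 1350 and 544 in RGCs and from 985 to 85 and 118 in non-RGCs. Scaling by total reads left 2 calls in non-RGCs (Notch1 and Dll1) and moved the median of all genes to 0.12 in RGCs and 0.14 in non-RGCs on the log2 scale. The share of calls that were lower then changed from 56.5% to 36.8% and from 60.6% to 25.1%, while removing the GC trend gave 64.4% and 40.3%. Leaving out each library gave 3 to 6 called members in RGCs, 1 to 5 in non-RGCs and 0 to 0 for the difference, and 18 to 37, 1 to 14 and 0 to 1 called other pathway genes. Apart from the GC removals, the calls lost in RGCs were Notch3 without mKO library A or C (adjusted p = 0.055 and 0.058 in limma) and Hes1 at the study's thresholds, where Dll3 passed instead. Notch3 in non-RGCs passed with no filter and with voom (adjusted p = 0.045 and 0.047). Signs turned for Notch2 in RGCs (0.043 with the GC trend removed), Hes5 in non-RGCs (0.28 and 0.32 under the removals) and Hes1 in non-RGCs (0.016 with both trends removed). Hey1 in RGCs ran from -0.018 to 0.032 over the left-out libraries. For the difference between fractions, Dll4 was 0.0092 with voom and 0.074 without the GC trend, and Jag1 -0.024 with total reads, -0.0018 without the GC trend and -0.046 without both trends. Over the left-out libraries it ran from -0.12 to 0.45 for Notch3, -0.27 to 0.22 for Dll3, -0.20 to 0.37 for Dll4 and -0.13 to 0.23 for Jag1. With the upper quartile, the median log2 level of WT RGCs over WT non-RGCs was -0.84 in place of -0.98. Where no value is given, the cause was not tested. No paired analysis was possible because the recovered reads carry no replicate number. At 7139633 to 13014004 reads on genes every member had over 100 reads in each library.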
